A study of Macaca mulatta with 51 samples.

Results

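The 3 uncoupling protein genes UCP1, UCP2 and UCP3 were taken from the gene count table by their human gene symbols, and they are 3 of the 16033 genes in it. Each had a single entry: UCP1 as ENSG00000109424, UCP2 as ENSG00000175567 and UCP3 as ENSG00000175564. RNA sequencing had been performed on punch biopsies of subcutaneous adipose tissue (AT) and gastrocnemius skeletal muscle (SM) of obese, non-diabetic adult rhesus macaques (Macaca mulatta) of both sexes, the females ovariectomized, all made obese on a high-fat diet and none genetically modified. Biopsies were obtained before treatment (pre-treatment), after 12 weeks of daily subcutaneous injections of native human FGF21 at rising doses (post-treatment; 1 animal was held at a lower final dose), and 16 weeks after the injections had stopped (washout). FGF21 is a hormone, made largely by the liver, that acts on adipose tissue and lowers body weight. Each animal served as its own control and no untreated animals were sampled, so the drug, the weight loss that went with it and the passage of time cannot be told apart. In AT 10 animals gave 10 libraries before treatment, 9 after it and 8 at washout, and in SM 8 animals gave 6, 8 and 7. The library numbers in the labels fall into 3 series, whose meaning the labels do not give and which are spread unevenly over the time points, mainly in SM.

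Uncoupling proteins are carriers of the mitochondrial inner membrane. UCP1 lets protons return to the mitochondrial matrix without making ATP and so releases heat in brown and beige adipocytes. UCP2 is found in many tissues and is abundant in macrophages and other immune cells, where it has been linked to the control of mitochondrial superoxide and of substrate export from mitochondria. UCP3 is found mainly in skeletal muscle, and in brown fat, and its expression follows the supply of fatty acids through PPAR transcription factors. The names of UCP2 and UCP3 come from their likeness to UCP1 in sequence, and neither is established as a source of heat in the way UCP1 is. In the RefSeq annotation of the macaque assembly MMU8v2.0, which is not the one used for these counts, UCP2 and UCP3 are adjacent protein-coding genes between DNAJB13 and C2CD3, while UCP1 lies on another chromosome.

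The libraries held between 15756491 and 23940980 counts in AT and between 14455195 and 21740711 in SM. Levels are given as CPM, a gene's counts scaled to a common library total, after TMM normalization, which corrects each total for differences in composition. A gene was called changed between time points when edgeR's quasi-likelihood test, with time point and animal in the model, gave a Benjamini-Hochberg adjusted p under 0.05 over all genes tested in that tissue and the size of the log2 fold change exceeded 0.26. All 3 members were among the 13367 genes tested in AT, UCP3 through its washout libraries. UCP2 and UCP3 were among the 12617 tested in SM, where UCP1 was below the filter of 0.5 CPM in at least 10% of libraries. The tissues carried the markers of their labels. ACTA1, the actin of skeletal muscle fibres, lay between 7100 and 42331 CPM in SM and between 0.992 and 16.02 CPM in AT, and the summed level of the 4 mature adipocyte markers in the table (ADIPOQ, PLIN1, LEP and FABP4) lay between 9439 and 32426 CPM in AT and between 36.7 and 1174 CPM in SM.

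Each member had its own distribution over the 2 tissues. Before treatment, UCP3 was found almost entirely in SM, UCP2 was well expressed in both tissues, and UCP1 was close to the detection limit in AT and lower still in SM. All 3 members differed between the tissues at the pre-treatment time point, in a comparison in which 77.7% of the 13463 genes tested were called. UCP3 was higher in SM by 12.27 on the log2 scale (SE 0.47, adjusted p = 3.7e-24). UCP1 was lower in SM, with a log2 difference of -3.73 (SE 0.93, adjusted p = 3.2e-04), and UCP2 was lower in SM, with a log2 difference of -0.79 (SE 0.34, adjusted p = 0.0328). These differences come from a fit over both tissues, with TMM factors computed across them, whereas the CPM levels given below are scaled within each tissue. With library size alone the UCP2 difference was -1.55 (adjusted p = 1.7e-04). The difference in UCP2 lost its call when the pre-treatment libraries were fitted alone (-0.37, adjusted p = 0.307) and when the animal was left out of the model (-0.69, adjusted p = 0.0681), whereas those in UCP1 and UCP3 kept theirs in every alternative fitted.

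**Figure D1:**
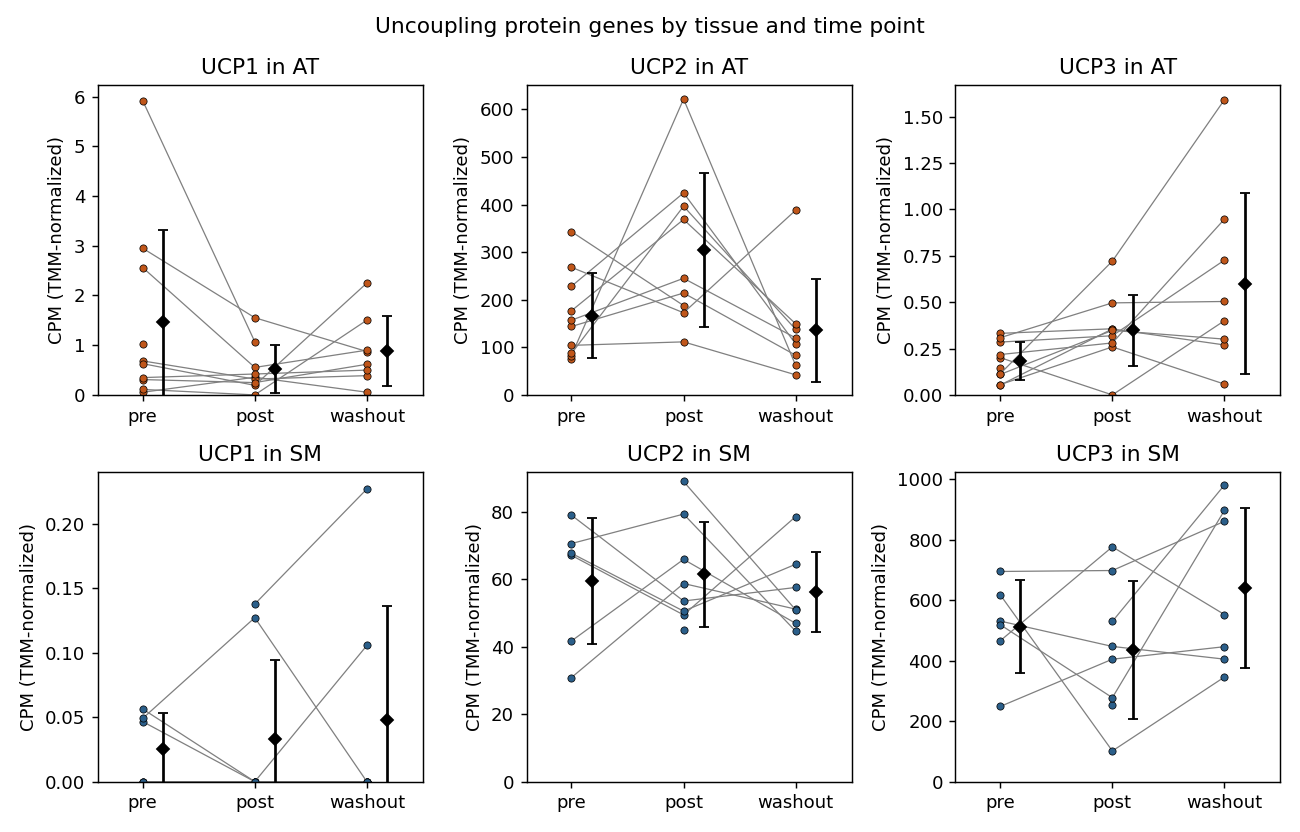
Levels of UCP1, UCP2 and UCP3 in AT (upper row) and SM (lower row) before treatment, after it and at washout, in TMM-normalized CPM. Points are libraries, grey lines join the libraries of an animal at successive time points, and diamonds with bars are means and SD. In AT, UCP2 runs from 42.2 to 622 CPM while UCP3 stays under 1.6 CPM, and in SM UCP3 runs from 101 to 980 CPM.

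UCP1, the thermogenic member, was scarce in AT at every time point. It gave 498 counts in all over the 27 AT libraries, and 4 of these libraries held no more than 3 counts. Before treatment its level ran from 0.0531 CPM through a median of 0.656 to 5.92 CPM (1.46 ± 1.86, SD, n = 10). At the post-treatment time point it ran from 0 through 0.356 to 1.55 CPM (0.523 ± 0.487, SD, n = 9). The 3 highest levels of all AT libraries were pre-treatment ones, from animals 20456, 20261 and 20275, but the groups overlapped broadly, and only 1 post-treatment library lay below the lowest pre-treatment one. That library, from animal 24849, held 0 counts of UCP1, which allows up to 3.

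After treatment, UCP1 did not pass the test in AT: the log2 fold change was -1.28 (SE 0.53, 95% confidence interval -2.38 to -0.19, adjusted p = 0.0922). Its level was lower in 7 of 9 animals, and the exact sign-flip permutation test of the per-animal changes gave p = 0.0859. None of the 3 members was called in this comparison by edgeR, DESeq2 or voom of limma, in which edgeR called 15.5% of the genes tested; UCP1 and UCP2, 2 of the 3, had unadjusted edgeR p-values under 0.05. UCP1 was called when the pre- and post-treatment libraries were fitted without the washout libraries (-1.28, adjusted p = 0.0478). The authors, who used voom of limma with the animal in the model, reported a significant decrease of UCP1 at post-treatment. Here voom gave -1.08 (adjusted p = 0.110), and the reason for the difference was not tested. At washout the level ran from 0.0539 through 0.744 to 2.25 CPM (0.885 ± 0.698, SD, n = 8), with the highest value in animal 22130. The change from post-treatment to washout was 1.30 on the log2 scale (SE 0.58, adjusted p = 0.0831) and was positive in 6 of 8 animals, and that from pre-treatment to washout was 0.02 (95% confidence interval -0.96 to 1.002, adjusted p = 0.980). This last interval is wide, and the counts do not tell whether UCP1 was back at its starting level. Without animal 20261 the change from post-treatment to washout was called (1.80, adjusted p = 0.0397).

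In SM, UCP1 was barely detected, with 14 counts in all over 21 libraries. It was at 0 in 14 of the SM libraries, and the highest library held 4 counts. At this depth a count of 0 allows a level of up to 0.208 CPM in the shallowest SM library and 0.138 CPM in the deepest, counting error alone considered, so no change of UCP1 between time points was detectable in SM.

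UCP2 was the member well measured in AT, with 871 to 12376 counts per library. Before treatment its level ran from 75.3 through a median of 150 to 343 CPM (167 ± 89.2, SD, n = 10). After 12 weeks of FGF21 it ran from 112 through 245 to 622 CPM (305 ± 161, SD, n = 9). At washout it ran from 42.2 through 114 to 388 CPM (136 ± 108, SD, n = 8). In 4 of the 9 post-treatment libraries UCP2 was above the highest pre-treatment library, and in 4 of the 8 washout libraries it was below the lowest post-treatment one. The washout library of animal 23004, at 388 CPM, stood apart from the other washout libraries, the next of which was at 149 CPM.

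The change of UCP2 over the 12 weeks of treatment did not pass the test, with a log2 fold change of 0.84 (SE 0.35, 95% confidence interval 0.11 to 1.57, adjusted p = 0.0971). Its level was higher in 7 of 9 animals, and the exact sign-flip permutation test gave p = 0.0898. The authors describe UCP2 as increased with treatment, and its increase as associated with greater weight loss, which was not examined here. The spread between animals was wide, from a log2 change of 2.91 in animal 20275 to -0.87 in animal 20456. Leaving out animal 20456 or animal 23004, both of which had lower UCP2 after treatment, brought UCP2 past the threshold (1.05 with adjusted p = 0.0442, and 0.94 with adjusted p = 0.0489). UCP2 then fell in AT from post-treatment to washout, with a log2 fold change of -1.31 (SE 0.36, 95% confidence interval -2.08 to -0.55, adjusted p = 0.00902), that is to 0.402 times the post-treatment level. It was lower at washout in 7 of 8 animals, and higher only in animal 23004. UCP2 was the 1 member of 3 called in this comparison, against 35.4% of all genes tested. The call held without each animal in turn, with log2 fold changes between -1.62 and -1.002. Washout and pre-treatment levels of UCP2 were not distinguished by the test (-0.47, 95% confidence interval -1.22 to 0.28, adjusted p = 0.380).

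Macrophage markers were set beside UCP2 in AT. Of 18 markers, all 18 were tested and none was at 0 in every library of a group. All 18 were higher after treatment (5 called, median log2 fold change 0.96, against 0.03 over all genes tested), and all 18 were lower at washout than after treatment (18 called, median -1.76). At washout all 18 were also lower than before treatment (6 called, median -0.79). Over all genes tested in AT, 15.5%, 35.4% and 20.5% were called in these comparisons, in the same order. The 5 called after treatment were C1QA, C1QB and C1QC, the chains of complement C1q that tissue macrophages make, with AIF1 and FCER1G. The summed level of the 18 markers in AT ran from 909 to 4215 CPM before treatment, from 1554 to 10037 CPM after it and from 613 to 4649 CPM at washout. In 5 of the 6 group extremes the library was the same as for UCP2: animal 20456 was highest before treatment, animal 20275 after it and animal 23004 at washout for both, and animal 21866 was lowest after treatment and at washout for both. Before treatment the lowest macrophage sum was that of animal 22130 and the lowest UCP2 that of animal 19832. In bulk tissue, fewer cells of a type and less RNA per cell cannot be told apart.

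Within animals, the changes of UCP2 and of the macrophage markers over the treatment period were of similar size. Between the pre- and post-treatment biopsies the marker score (the mean log2 CPM of the 18 genes) changed by 0.83 ± 1.19 (SD, n = 9 animals) and UCP2 by 0.76 ± 1.22. The pair had the same direction in 8 of 9 animals, and in the remaining one, animal 21866, both changes were small (UCP2 0.10, markers -0.16). Pearson's r between the changes was 0.98 (exact permutation p = 1.1e-05) and Spearman's rho was 0.98 (exact permutation p = 5.0e-05). After Benjamini-Hochberg adjustment over the 10 cell type lists compared in this way, the exact permutation p-values were 1.1e-04 and 5.0e-04. Without animals 20275 and 22130, whose marker changes lay farthest from the median, r was 0.94 (n = 7, exact permutation p = 7.9e-04), and in the 6 animals with both libraries in the last series of library numbers it was 0.98 (exact permutation p = 0.00556). UCP2 and the markers were measured in the same libraries and share their scaling. From these AT data the authors had already placed UCP2 in a module of co-expressed genes that holds immune cell markers. The lists were chosen with earlier results known, so the p-values are no independent support for the link. Over the washout period r was 0.88 (n = 8, exact permutation p = 3.2e-04).

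**Figure D2:**
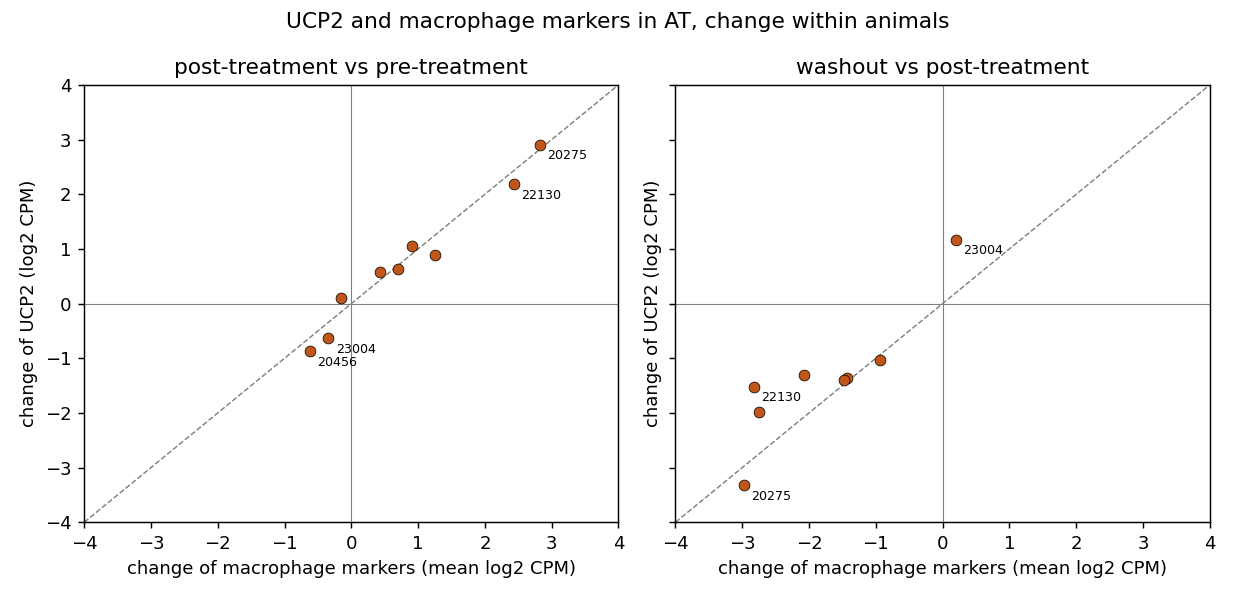
Change of UCP2 within each animal in AT (vertical axis, log2 CPM) against the change of the 18 macrophage markers (horizontal axis, mean log2 CPM), for post-treatment against pre-treatment (left, 9 animals) and washout against post-treatment (right, 8 animals). The dashed line marks equal changes. On the left the points lie within 0.36 of the line, and on the right 6 of 8 lie above it.

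The size of the changes was compared as well as their direction. After treatment UCP2 minus the marker score changed by -0.06 ± 0.23 (SD, n = 9), with a range of -0.36 to 0.26 and an exact sign-flip permutation p of 0.410. From post-treatment to washout the change of UCP2 minus that of the markers was 0.44 ± 0.59 (SD, n = 8), which was positive in 6 of 8 animals and did not pass the test (exact sign-flip permutation p = 0.0938). From pre-treatment to washout it was 0.40 ± 0.47 (SD, n = 8), positive in 6 of 8 animals (exact sign-flip permutation p = 0.0625). The marker score was lower at washout than before treatment in all 8 animals, and UCP2 had the same direction in 6 of them. With the marker score as a covariate in the edgeR model, the log2 fold change of UCP2 was -0.048 after treatment (adjusted p = 0.908), 0.46 from post-treatment to washout (adjusted p = 0.197) and 0.41 from pre-treatment to washout (adjusted p = 0.0789). With this covariate the fall of UCP2 at washout was no longer called and its sign turned. Over all genes the covariate took the number called from 2068 to 301 after treatment, from 4731 to 1715 from post-treatment to washout and from 2735 to 3743 from pre-treatment to washout.

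With the other cell type lists the correlations of the UCP2 change were smaller in size. Over the same 9 animals the 4 mature adipocyte markers changed in the opposite direction (r = -0.91, rho = -0.92, adjusted exact permutation p for rho = 0.00656; r = -0.79 without the 2 farthest animals). For the 8 T cell markers r was 0.76 (adjusted exact permutation p = 0.0483) and rho 0.67 (adjusted exact permutation p = 0.147). For the 4 B cell markers r was -0.75 (adjusted exact permutation p = 0.0483) and rho -0.70 (adjusted exact permutation p = 0.144). Without the 2 farthest animals r was 0.63 for T cells and -0.70 for B cells. The lists for neutrophils, endothelial cells, progenitors, erythroid cells, muscle fibres and keratinocytes had rho between -0.43 and 0.52. Over the 27 AT libraries, which share animals and time points, r between UCP2 and the macrophage score was 0.89, and those with the T cell and adipocyte scores were 0.62 and -0.45.

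By Pearson's r of log2 CPM over the 27 libraries, among 12138 genes averaging 1 CPM or more, the 5 nearest to UCP2 in AT were ITGAX (0.97), CD52 (0.96), HVCN1 (0.95), LAPTM5 (0.95) and STXBP2 (0.95). ITGAX encodes CD11c, a surface integrin of macrophages and dendritic cells, and is the one of the 5 on the macrophage list. CD52 is a surface glycoprotein of leukocytes, HVCN1 is a voltage-gated proton channel of phagocytes and B cells, and LAPTM5 is a lysosomal membrane protein of blood cells. ITGAX itself ran from 60.0 to 595 CPM before treatment, from 138 to 1702 CPM after it and from 38.6 to 1029 CPM at washout. Its log2 fold change was 1.35 after treatment (adjusted p = 0.0898) and -2.01 from post-treatment to washout (adjusted p = 0.0113). As ITGAX was chosen by its correlation with UCP2 over these libraries, its similar course is no separate finding.

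In SM, UCP2 was of similar level at the 3 time points. Its level ran from 30.8 through 67.3 to 78.9 CPM before treatment (59.4 ± 18.8, SD, n = 6), from 45.0 through 56.1 to 88.9 CPM after it (61.4 ± 15.6, SD, n = 8) and from 44.6 through 51.1 to 78.5 CPM at washout (56.3 ± 11.9, SD, n = 7). The groups overlapped almost entirely. The log2 fold changes were 0.11 after treatment (95% confidence interval -0.34 to 0.57, adjusted p = 0.9996), -0.18 from post-treatment to washout (-0.61 to 0.24, adjusted p = 0.667) and -0.07 from pre-treatment to washout (-0.52 to 0.37, adjusted p = 0.911). Neither UCP2 nor UCP3 was called in SM in any comparison by edgeR, DESeq2 or voom, and neither had an unadjusted edgeR p-value under 0.05. The share of genes called by edgeR in SM was 0%, 0.19% and 0.0634% in the same order. The first of these shares is 0 of 12617 genes by edgeR, by DESeq2 and by voom of limma alike, with 410 genes at an unadjusted p under 0.05 in edgeR.

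Scaled within each tissue, the summed macrophage markers were lower in SM than in AT, from 27.5 to 424 CPM against 613 to 10037 CPM, while UCP2 lay at 30.8 to 88.9 CPM against 42.2 to 622 CPM. Set against the summed markers, UCP2 came to 4.52 to 20.8 CPM per 100 CPM in AT and to 15.2 to 234 CPM per 100 CPM in SM, and 19 of the 21 SM libraries were above the highest AT library. The medians of this ratio in AT were 6.57 before treatment, 6.35 after it and 9.02 at washout. Over the 21 SM libraries, which also share animals, r between UCP2 and the macrophage score was 0.20 and rho 0.15. The 5 genes most like UCP2 in SM, among 11143 genes, were NQO1 (r = 0.76), GRHL1 (0.74), ZNF285 (0.72), HOXA11 (0.70) and HOXD9 (0.69). None is on the macrophage list.

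**Figure D3:**
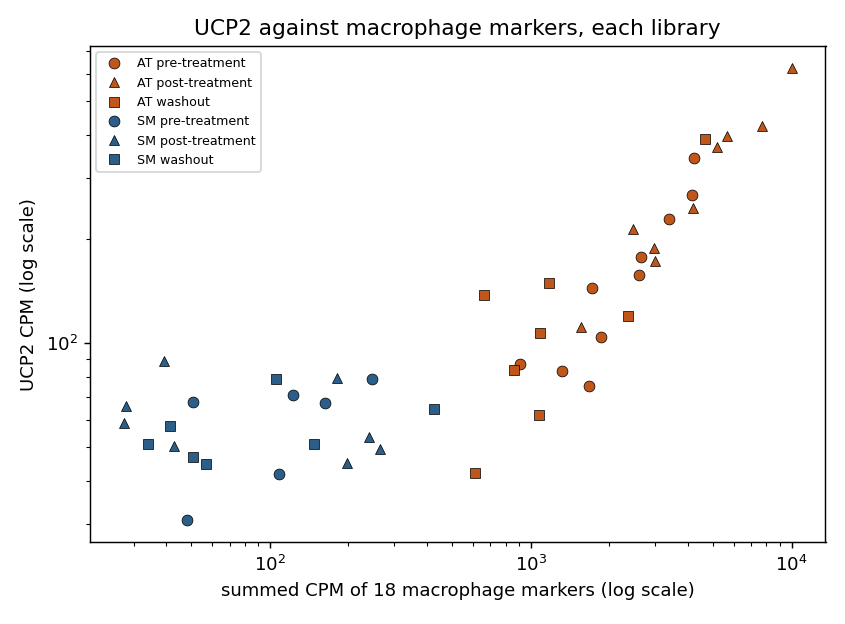
UCP2 (vertical axis, CPM) against the summed level of the 18 macrophage markers (horizontal axis, CPM) in each library, both axes logarithmic. AT libraries are orange and SM libraries blue, and the symbol gives the time point. In AT both rise together over the range of 613 to 10037 CPM of markers, whereas in SM UCP2 stays between 30.8 and 88.9 CPM.

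The change of UCP2 was also tested for a difference between the tissues. From post-treatment to washout the change in SM exceeded that in AT by 1.14 on the log2 scale (SE 0.45, 95% confidence interval 0.22 to 2.07, adjusted p = 0.0685), which did not pass the test, in a comparison in which 22.7% of the 12322 genes tested in both tissues were called. Neither UCP2 nor UCP3 was called there. The difference in UCP2 was -0.68 for post-treatment against pre-treatment (adjusted p = 0.628, with 0.0487% of genes called) and 0.46 for washout against pre-treatment (adjusted p = 0.550, with 17.5% called), again with neither member called. Without animal 20456 or animal 23004 the difference from post-treatment to washout was called (1.36 with adjusted p = 0.0327, and 1.50 with adjusted p = 0.0163).

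**Figure D4:**
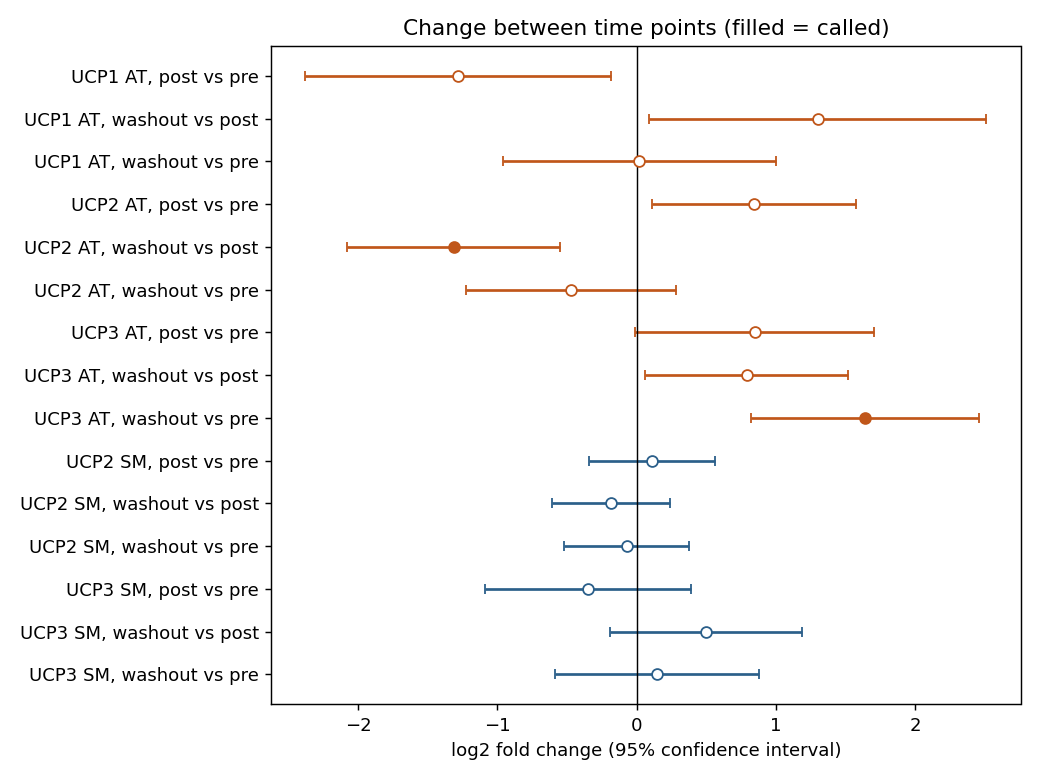
Log2 fold changes between time points with 95% confidence intervals from edgeR's quasi-likelihood fit, for the members tested in AT (orange) and SM (blue). Filled symbols were called. The called changes are UCP2 in AT from post-treatment to washout (-1.31) and UCP3 in AT from pre-treatment to washout (1.64), and the SM intervals include 0.

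UCP3, the muscle member, was abundant in SM, with 2480 to 17260 counts per library. Its level ran from 249 through a median of 525 to 695 CPM before treatment (513 ± 153, SD, n = 6), from 101 through 426 to 776 CPM after it (436 ± 228, SD, n = 8) and from 346 through 552 to 980 CPM at washout (641 ± 264, SD, n = 7). The groups overlapped, and 3 washout libraries, of animals 19832, 20456 and 24849, were above every earlier one. After treatment the log2 fold change was -0.35 (SE 0.35, 95% confidence interval -1.09 to 0.39, adjusted p = 0.9996), with 3 of 6 animals lower. From post-treatment to washout it was 0.50 (SE 0.32, 95% confidence interval -0.19 to 1.19, adjusted p = 0.451), with 5 of 7 animals higher, and from pre-treatment to washout it was 0.15 (SE 0.34, adjusted p = 0.887). With the library number series in the model, the change of UCP3 from post-treatment to washout was called (1.19, adjusted p = 0.0470). Of the SM post-treatment libraries 5 were of the first series and 3 of the last, and of the washout libraries 6 were of the last. UCP3 after treatment was at 405 to 776 CPM in the 5 first-series libraries and at 101 to 278 CPM in the 3 last-series ones. Before treatment it ran from 249 to 617 CPM in the first series (n = 3) and from 531 to 695 CPM in the last (n = 2).

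The post-treatment library of animal 21189 had the lowest UCP3 of all SM libraries, 101 CPM, and also the lowest summed muscle fibre markers, 36465 CPM against a median of 122166 CPM in its group. It had the highest adipose progenitor markers of its group (17294 CPM, median 2885 CPM), macrophage markers (265 CPM, median 112 CPM) and T cell markers (25.9 CPM, median 12.1 CPM), and the lowest mature adipocyte markers (52.7 CPM). The part of these in the low UCP3 was not tested. In an alternative added after seeing the data, the post-treatment change of UCP3 without this single library was -0.048 (adjusted p = 0.9995) in place of -0.35. Leaving out all libraries of animal 21189 gave 0.10. Relative to CKM, the creatine kinase of muscle fibres, UCP3 had 13.5 to 51.8 counts per 1000 counts of CKM in SM, with medians of 35.5 before treatment, 30.8 after it and 27.1 at washout. The 3 post-treatment libraries of the last series, of animals 21189, 21866 and 24849, had the lowest CKM of all SM libraries, 3807 to 8550 CPM. Their UCP3 was at 26.7 to 35.5 counts per 1000 counts of CKM. Over the 21 SM libraries r between UCP3 and the fast fibre score was 0.68 (rho 0.63) and that with the slow fibre score was 0.36 (rho 0.33), and the difference between them was not tested. The 5 genes most like UCP3 in SM were ZNF677 (r = 0.87), ANK1 (0.86), CCDC127 (0.85), IKZF4 (0.84) and ACTN3 (0.84). ANK1 is an ankyrin with a short form in the sarcoplasmic reticulum of muscle, and ACTN3 is the alpha-actinin of fast fibres. In SM, r between UCP3 and UCP2 was 0.02.

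In AT, UCP3 was close to the detection limit, yet it was the member that differed between the first and the last biopsies. Over the 27 AT libraries it gave 189 counts in all, of 0 to 29 per library, and 7 libraries held no more than 3 counts. Its level ran from 0.0531 through a median of 0.173 to 0.332 CPM before treatment (0.182 ± 0.102, SD, n = 10). After treatment it ran from 0 through 0.348 to 0.721 CPM (0.348 ± 0.192, SD, n = 9), and at washout from 0.0582 through 0.452 to 1.59 CPM (0.600 ± 0.487, SD, n = 8). In 5 of the 8 washout libraries and 5 of the 9 post-treatment libraries UCP3 was above the highest pre-treatment one. The washout library of animal 20261 held 1 count and lay among the lowest.

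From pre-treatment to washout UCP3 rose in AT by 1.64 on the log2 scale (SE 0.40, 95% confidence interval 0.82 to 2.46, adjusted p = 0.00407), a 3.12-fold difference, and 1 member of 3 was called in this comparison against 20.5% of all genes tested. The UCP3 count was higher at washout in 7 of 8 animals. Animal 20261 held 1 count at both time points, and its log2 change of 0.02 comes from scaling. Without this animal edgeR gave 1.67 (adjusted p = 0.00788). Over the other 7 animals the changes ran from 0.56 to 2.96, and the exact sign-flip permutation p of 0.0156 is the smallest that 7 animals allow. UCP3 reached the 0.5 CPM of the filter in 4 of 8 libraries at washout, in 1 of 9 after treatment and in 0 of 10 before treatment, so it was tested in AT through the group in which it was high. With no filter the log2 fold change was 1.64 (adjusted p = 0.00400), and with the pre- and post-treatment libraries alone UCP3 was below the filter. The call held without each animal in turn (1.29 to 1.81) and in each of the 12 other alternatives fitted (1.15 to 1.78). These fits reuse the same few counts, 35 in all before treatment. All but the fit with no filter kept UCP3 through its washout libraries, so they are no independent support. The steps between were not called, with 0.85 after treatment (SE 0.42, adjusted p = 0.151, higher in 8 of 9 animals) and 0.79 from post-treatment to washout (SE 0.35, adjusted p = 0.0799, higher in 5 of 8 animals). The change from pre-treatment to washout in SM minus that in AT was -1.35 (SE 0.55, adjusted p = 0.0860), which did not pass the test.

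Muscle genes in AT were set beside UCP3. ACTA1 and CKM stood at medians of 3.70 and 1.78 CPM in AT at washout and 3.20 and 1.75 CPM before treatment. From pre-treatment to washout their log2 fold changes were -0.21 (adjusted p = 0.792) and -0.22 (adjusted p = 0.778). Of the 8 muscle fibre markers tested in AT, 2 were called higher at washout than before treatment, near the share of 20.5% of all genes called. These were DES (2.27, adjusted p = 0.0281) and ACTN2 (0.97, adjusted p = 0.00251), and the median of the 8 was -0.19. The summed level of the 8 markers in AT ran from 29.2 through a median of 49.4 to 160 CPM before treatment. At washout it ran from 20.9 through 128 to 444 CPM. DES encodes desmin, which smooth muscle also makes. With the muscle fibre score as a covariate the rise of UCP3 was 1.52 (adjusted p = 0.0103). UCP3 had 13.3 to 500 counts per 1000 counts of CKM in AT before treatment and 43.5 to 1000 at washout, and 22 of the 27 AT libraries were above the highest SM library, at 51.8. These AT ratios rest on 0 to 29 counts of UCP3 and on 0.400 to 7.92 CPM of CKM per library. Both are close to the detection limit, so the ratios are imprecise. How reads shared between UCP2 and UCP3 were assigned is not given in the sources used here, and their part in the UCP3 counts of AT was not tested. The AT library with the most UCP2 counts (12376, animal 20275 after treatment) had 0 counts of UCP3, and over the 27 libraries r between UCP2 and UCP3 was -0.09.

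Among the carriers nearest to the uncoupling proteins, 2 were also higher in AT at washout. The 9 carriers compared were the adenine nucleotide carriers SLC25A4, SLC25A5, SLC25A6 and SLC25A31, the brain-type uncoupling proteins SLC25A27 (also known as UCP4) and SLC25A14 (also known as UCP5) with their relative SLC25A30, and the dicarboxylate and oxoglutarate carriers SLC25A10 and SLC25A11. SLC25A27 ran from 10.1 through a median of 22.0 to 34.6 CPM before treatment, from 11.6 through 17.4 to 37.1 CPM after it and from 41.8 through 62.9 to 79.1 CPM at washout. All 8 washout libraries of SLC25A27 lay above every earlier AT library. From pre-treatment to washout it rose by 1.59 (SE 0.22, adjusted p = 4.9e-05), and its log2 fold change after treatment was 0.01 (SE 0.22, adjusted p = 0.976). SLC25A14 ran from 2.47 to 4.10 CPM before treatment, from 3.08 to 5.16 CPM after it and from 3.96 to 8.46 CPM at washout, a rise of 0.89 from the first to the last time point (SE 0.15, adjusted p = 3.2e-04).

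After treatment 3 of 9 were called lower and none higher, against 15.5% of all genes, namely SLC25A10 (-0.94, adjusted p = 0.0133), SLC25A11 (-0.36, adjusted p = 0.0177) and SLC25A4 (-0.30, adjusted p = 0.0277). Over the washout period 5 of 9 were called higher and none lower, against 35.4% of all genes, and these were SLC25A31 (2.03), SLC25A27 (1.57), SLC25A10 (0.87), SLC25A14 (0.66) and SLC25A4 (0.26). Between pre-treatment and washout SLC25A27 and SLC25A14 were called, 2 of 9 against 20.5% of all genes, which is near that share. SLC25A5, SLC25A6 and SLC25A30 were called in no comparison in AT, with log2 fold changes between -0.27 and 0.12. In SM none of the 8 carriers tested was called in any comparison by edgeR, with 0, 0 and 2 of them at an unadjusted p under 0.05 after treatment, from post-treatment to washout and from pre-treatment to washout. SLC25A27 had a log2 fold change of -0.52 from pre-treatment to washout in SM (adjusted p = 0.336), and its change in SM minus that in AT was -2.05 (SE 0.32, adjusted p = 3.5e-05). For SLC25A14 this difference was -1.29 (SE 0.22, adjusted p = 1.0e-04). Over the 27 AT libraries r between UCP3 and SLC25A27 was 0.33 and that between UCP3 and SLC25A14 was 0.31.

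**Figure D5:**
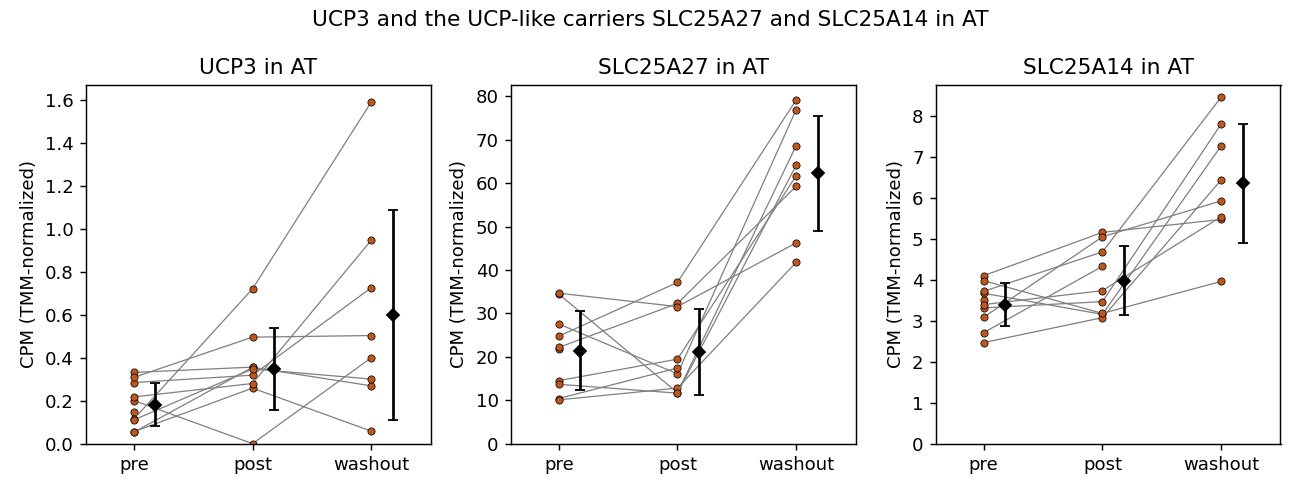
UCP3 and the related carriers SLC25A27 and SLC25A14 in AT at each time point, in TMM-normalized CPM, with points for libraries, lines for animals, and diamonds with bars for means and SD. All 8 washout libraries of SLC25A27 lie above 41 CPM and all earlier ones below 38 CPM, whereas UCP3 overlaps between time points.

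Among 16 regulators of the uncoupling protein genes tested in AT, 1 was called after treatment, against 15.5% of all genes. This was PPARG, the adipocyte nuclear receptor, which fell by 0.70 on the log2 scale (adjusted p = 0.0111). At washout against post-treatment PPARG (0.49, adjusted p = 0.0303) and PPARGC1A (1.02, adjusted p = 0.0134) were called higher, 2 of the 16 against 35.4% of all genes. From pre-treatment to washout 1 of the 16 was called, in the direction of a rise, against 20.5% of all genes. In that comparison 7 of the 16 had an unadjusted edgeR p under 0.05, as had 4549 of all 13367 genes tested. PPARGC1A encodes PGC-1alpha, a coactivator of UCP1 transcription and of mitochondrial biogenesis, and its median in AT was 7.02 CPM before treatment, 2.83 CPM after it and 6.05 CPM at washout, with a log2 fold change of -0.79 after treatment (adjusted p = 0.0668). PPARA, PPARD and PPARGC1B were not called in AT in any comparison. Over the 27 AT libraries r between UCP1 and PPARGC1A was 0.27. Of the 9 brown and beige adipocyte genes tested, ELOVL3 (-1.16, adjusted p = 0.0133) and CKMT2 (-0.90, adjusted p = 0.0243) were called lower after treatment and EPSTI1 was called higher (0.51, adjusted p = 0.0451), against 15.5% of all genes. At washout against post-treatment 5 of the 9 were called higher and 1 lower, against 35.4% of all genes. Those called higher were CKMT2 (1.35), ELOVL3 (1.05), PPARGC1A (1.02), GATM (0.43) and COX7A1 (0.33), and EPSTI1 (-0.63) was the one called lower. From pre-treatment to washout edgeR called 0 of the 9, against 20.5% of all genes, with 0 at an unadjusted p under 0.05. The genes most like UCP1 in AT were LAPTM4B (r = 0.78), BLCAP (0.74), JAGN1 (0.74), OSGIN1 (0.72) and MTHFD1L (0.72), over 12139 genes, and r between UCP1 and the adipocyte score was 0.50.

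UCP3 was also set beside genes of fatty acid oxidation and PPAR target genes. PDK4, the kinase that turns down pyruvate dehydrogenase when fatty acids are burned, rose in AT after treatment by 1.12 (adjusted p = 0.00235) and fell by 1.29 from post-treatment to washout (adjusted p = 1.2e-04), while the median of UCP3 in AT was highest at washout. The level of PDK4 in AT had a median of 225 CPM before treatment, 519 CPM after it and 157 CPM at washout. CPT1B, the muscle form of the enzyme that lets fatty acids into mitochondria, was not called in AT (-0.29 after treatment, adjusted p = 0.350). Of the 18 genes of this list tested in AT, 2 were called higher and 5 lower after treatment (15.5% of all genes called), 1 higher and 5 lower from post-treatment to washout (35.4%), and 1 in each direction at washout against pre-treatment (20.5%). In SM none of the 18 was called in any comparison by edgeR, with 0 at an unadjusted p under 0.05. Over the 21 SM libraries r of UCP3 with CPT1B was 0.51 and with PDK4 0.37. Of the 9 mitochondrial antioxidant genes, none was called in AT after treatment by edgeR, against 15.5% of all genes, with 1 at an unadjusted p under 0.05. At washout against post-treatment SOD2, GPX1 and CAT were called lower (-0.89, -0.43 and -0.57) and SIRT3 and TXNRD2 higher (0.41 and 0.36). These were 5 of 9, against 35.4% of all genes.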

How the data were processed

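RNA from AT and SM punch biopsies was sequenced by the authors as stranded, poly(A)-selected, paired-end 50 nt reads, which they aligned with STAR to the MacaM macaque genome and deposited as raw counts per gene, with genes matched to human homologs by symbol. The counting tool and versions are not given in the sources used here. Of 51 labelled samples, 48 had counts and the other 3, all SM, were not analysed here. Of 16103 entries, 70 repeats of a gene were dropped. In each tissue, genes that reached 0.5 CPM in 10% or more of its libraries were tested with edgeR 4.0.16 (quasi-likelihood F test, robust, TMM, two-sided) in R 4.3.3, with time point and animal as terms. Samples are paired because the labels name the animal. Differences between tissues were fitted as interaction terms over the genes tested in both. Standard errors were derived from the log2 fold change and the F statistic, and log2 CPM used a prior count of 2. Each fit was checked on simulated data. For the fit of SM against AT the simulated spread of each gene was capped, so that check does not cover genes that vary more. Depth limits UCP1 and UCP3 in AT, where 0.5 CPM is 7.88 counts in the shallowest library. Upper limits given for libraries without counts of a gene cover counting error only. The confidence intervals of log2 fold changes come from the edgeR fit and its standard errors, which also take in the spread between libraries.

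The members and gene lists were chosen with earlier results of these data known. Named by rule were the members, the 5 genes most correlated with each (mean of at least 1 CPM), PPARGC1A, PPARG, PPARA, PPARD, PPARGC1B, the SLC25 carriers, PDK4 and CPT1B, and up to 3 called genes per direction of a list. ACTA1, CKM and some macrophage markers were named after their values were seen. Correlations of per-animal changes used exact permutation of pairings. Alternatives were voomWithQualityWeights (limma 3.58.1), DESeq2 1.42.0, other scalings and filters, no animal term, library number series, marker scores as covariates, the compared time points alone, exact sign-flip tests and each animal left out. The earlier quasi-likelihood method of edgeR and SM without the post-treatment library of animal 21189 were added after seeing the data. No sequence or per-length level of the members is given, as no lengths or sequences were used here.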

Additional observations from a re-analysis of the deposited data

Results flagged for a closer look

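Of 15 groups of 6 to 10 libraries examined for a single value far from the rest, 2 had one, where chance gives about 1 in 20 for normally distributed values. The values here were unlogged CPM, which can be skewed, so that rate may not hold. For UCP1 in AT before treatment the mean was 1.46 CPM and the median 0.656 CPM. UCP1 in AT before treatment was at 5.92 CPM in animal 20456, against 2.95 CPM in the next library. UCP2 in AT at washout was at 388 CPM in animal 23004, against 149 CPM in the next. Without animal 20456 the post-treatment change of UCP1 was -0.96 (edgeR adjusted p = 0.243) in place of -1.28. Without animal 23004 the change of UCP2 from post-treatment to washout was -1.62 (edgeR adjusted p = 0.00127) and stayed called.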

How the results depend on the processing

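Of 228 values from alternatives over 26 results, 209 kept their direction and their side of the threshold, as did 220 of 237 values with an animal left out; where they did not, the cause was not tested unless the alternative itself shows it. Low counts limit UCP1 and UCP3 in AT, and with at least 10 counts required in every library neither could be fitted there, nor could UCP3 with the pre- and post-treatment libraries alone. UCP1 in SM was below the filter, so no alternative gave a value. The rise of UCP3 in AT from pre-treatment to washout was called in each of its 12 alternatives, which reuse the same few counts. The fall of UCP2 in AT from post-treatment to washout was called in 13 of 14, the exception being the macrophage score as a covariate, with which the 3 UCP2 changes in AT were -0.048, 0.46 and 0.41. UCP1 in AT, washout against pre-treatment, was -0.44 with voom of limma, -0.013 without a filter, -0.15 with the library number series and -0.71 without the animal term. The post-treatment change of UCP1 was -1.28 and called with the compared time points alone (adjusted p = 0.0478). In SM the library number series turned the UCP2 changes to -0.064, 0.21 and 0.15 and brought the UCP3 change from post-treatment to washout to 1.19 (called); the compared time points alone gave 0.016 for UCP2 and the slow fibre score gave -0.027 for UCP3, both for washout against pre-treatment. The UCP3 difference between tissues for washout against pre-treatment was called with library size alone (-1.58). UCP2 in SM against AT was not called with the pre-treatment libraries alone (-0.37). UCP2 minus the macrophage score in AT was 0.057 with the median of the markers, and 0.44 from post-treatment to washout.

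With the animal left out of the model (no replicate block), 2 of the 18 results so fitted changed: UCP1 in AT, washout against pre-treatment (-0.71), and UCP2 in SM against AT (-0.69, no longer called); the block changed no other call. Over all genes in SM, washout against post-treatment gave 24 calls with edgeR and 359 with DESeq2, and washout against pre-treatment gave 8 with edgeR, 674 with voom and 170 with DESeq2.

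Leaving out 1 animal at a time gave ranges of log2 values that crossed 0 or the threshold. In AT these were 0.54 to 1.05 for UCP2 after treatment, 0.88 to 1.80 for UCP1 from post-treatment to washout and -0.38 to 0.37 for UCP1 from pre-treatment to washout. In SM they were -0.036 to 0.27 for UCP2 and -0.58 to 0.10 for UCP3 after treatment, and -0.21 to 0.048 for UCP2 from pre-treatment to washout. Between tissues they were 0.91 to 1.50 for the UCP2 and -0.55 to 0.062 for the UCP3 difference in the change from post-treatment to washout, and -0.95 to -0.59 for UCP2 in SM against AT, where the call was lost without animal 19832, 20456, 21189 or 23004.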
